A study of Rattus norvegicus with 12 samples.

Results

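The direct comparison of the peptides HNG and MOTS-c, both given together with angiotensin II (AngII), was made on 8 of the 12 libraries of the series: 4 labelled AngII+HNG and 4 labelled AngII+MOTS-c. The libraries were chosen by their treatment labels alone, and all expressed genes were described. The cells were primary fibroblasts from the atria of Sprague-Dawley rats aged 1 to 3 days, separated by differential adhesion, which enriches fibroblasts without sorting them. All cells received AngII at 1 μmol/L for 48 h in medium with 2% FBS. The peptides entered the medium 1 h earlier at different concentrations, 10 μmol/L for HNG but 5 μmol/L for MOTS-c, so the peptide and its concentration cannot be told apart. The RNA of the whole culture was sequenced. The remaining 4 libraries, from cells given AngII alone, took no part in the test and their values are set beside the others only as a description. The question was which genes the cells expressed differently under one peptide than under the other.

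Humanin and MOTS-c are small peptides encoded by short reading frames inside the mitochondrial ribosomal RNA genes, humanin in the large and MOTS-c in the small ribosomal RNA. HNG carries a glycine where humanin has a serine and acts at lower concentrations than the natural peptide. Humanin binds a receptor complex of CNTFR, IL27RA and the shared cytokine receptor chain gp130 (Il6st), binds formyl peptide receptors, and inside cells binds proteins of the Bcl-2 family such as Bax. MOTS-c slows the folate cycle and purine synthesis and activates the energy sensor AMPK, and it can enter the nucleus under stress. In cardiac fibroblasts, AngII promotes the change to myofibroblasts, cells that carry α-smooth muscle actin stress fibres and deposit collagen.

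The 12 libraries held 27960586 to 38322354 read counts on genes, and 3 counts, taken as the floor for counting error, equalled a level of 0.0783 to 0.107 CPM, the unit of all levels below, in which counts are divided by the TMM-scaled library size. No pair of libraries of a group agreed within sampling noise, with a mean chi-square of at least 4.4 per gene. AngII+HNG replicate 3 stood apart from its group: its chi-square per gene against the other HNG libraries was 14.3 to 19.4, while HNG pairs without it gave 5.31 to 8.89 and MOTS-c pairs 4.69 to 9. Counts without this library are therefore given where they differ. Markers of fibroblasts were abundant, with a summed level of 42100 to 47600 CPM for 9 genes in the 8 libraries, and markers of other cell types were also detected. Which cells made them was not tested. A list of 12 cardiomyocyte markers summed to 6780 to 7920 CPM with HNG and 6000 to 7820 with MOTS-c, and 10 endothelial markers to 142 to 150 against 131 to 137 CPM. Smooth muscle and pericyte markers summed to 1160 to 1250 CPM with HNG and 1290 to 1450 with MOTS-c. In bulk RNA, fewer cells of a type and less RNA per cell cannot be told apart.

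Cells given HNG and cells given MOTS-c differed in many genes, mostly by small amounts. Of 14448 tested genes, 637 differed at an adjusted p below 0.05 by edgeR's quasi-likelihood test, which is 4.41% of all tested. A total of 381 genes (2.64%) were higher and 256 genes (1.77%) lower with HNG than with MOTS-c. Of all tested genes, 105 (0.727%) passed with a difference of at least 1.5-fold and 19 (0.132%) with at least 2-fold. The median log2 fold change, here always HNG over MOTS-c, was 0.41 among the higher and -0.26 among the lower genes, while that of all tested genes was 0.00. The lower genes were the more abundant, with a median of 89.0 CPM against 31.4 CPM for the higher genes, and the longer, with a median length of 4340 against 2630 bases, a length derived by dividing each count by its FPKM value. The 4 values of one group lay wholly outside those of the other in 609 of the 637 genes, and in 12.6% of all tested genes. The call and the overlap rest on the same values, so the 609 are no separate support. With AngII+HNG replicate 3 left out, 625 genes passed the test. Leaving out another single library lowered the count by more than 1.5 times in 4 cases: it was 416 without AngII+HNG replicate 2, 324 without AngII+MOTS-c replicate 1, 322 without AngII+MOTS-c replicate 2 and 389 without AngII+MOTS-c replicate 3. On the authors' FPKM values 437 genes passed with limma, 72.3% of them higher with HNG, against 59.8% in the test of counts.

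Over all tested genes, 21.9% of the summed squared distances between libraries lay between the groups (one-sided exact permutation test over 35 divisions, p = 0.0286, the smallest value this design allows). On the first principal component the HNG libraries lay at -18.26 to -7.20 and the MOTS-c libraries at 7.78 to 18.01, without overlap.

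**Figure D1:**
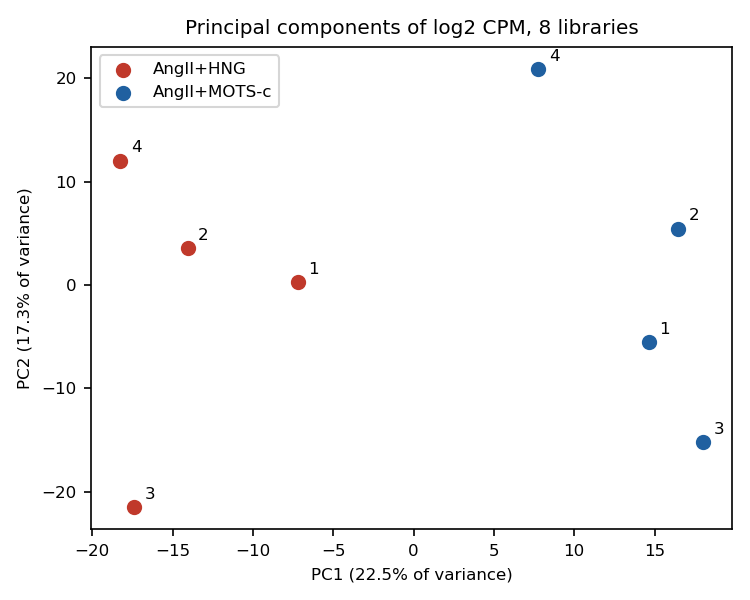
The first and second principal components of log2 CPM (arbitrary units) of the 8 libraries, 1 point per library with its replicate number, HNG in red and MOTS-c in blue. The groups lie on opposite sides of the first component, which carries 22.5% of the variance, and AngII+HNG replicate 3 lies lowest on the second, which carries 17.3%.

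**Figure D2:**
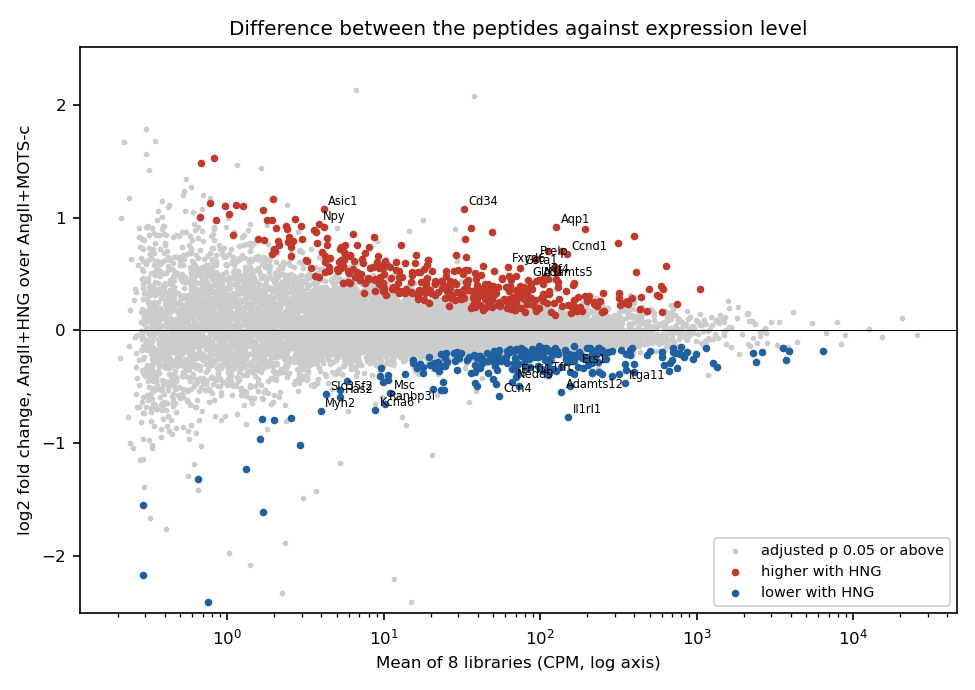
Mean level over 8 libraries (CPM, log axis) against the log2 fold change of HNG over MOTS-c for the tested genes, with 381 genes called higher in red, 256 called lower in blue and the rest in grey. All but 19 of the 637 called genes lie within 1 log2 unit of 0.

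Among called genes above 10 CPM, the largest difference was in Cd34, a sialomucin on the surface of progenitor, endothelial and some stromal cells. Its level was 42.6, 46.3, 41.6 and 45.8 CPM in the HNG libraries 1 to 4 and 19, 22.1, 19.2 and 23.5 CPM in the MOTS-c libraries 1 to 4. Every HNG library lay far above every MOTS-c library, with a log2 fold change of 1.07 ± 0.07 (SE, adjusted p = 3.11e-05), and cells given AngII alone held 21 to 25 CPM. Aqp1, the water channel of endothelia and fluid-transporting cells, stood at 161, 178, 142 and 182 CPM with HNG and 74.6, 99.9, 85.7 and 90.9 CPM with MOTS-c. These groups also lay apart, by 0.92 ± 0.09 on the log2 scale (adjusted p = 0.00019). The 10 endothelial markers summed to 142 to 150 CPM with HNG and 131 to 137 CPM with MOTS-c. The part of endothelial RNA in Cd34 and Aqp1 was not tested. Asic1, a proton-gated sodium channel, was at 4.83 to 6.61 CPM with HNG and 2.49 to 3.12 CPM with MOTS-c, a log2 fold change of 1.07. Grin3a, a subunit of NMDA-type glutamate receptors, had a log2 fold change of 1.10 at levels near 1 CPM (1.42 to 2.25 against 0.735 to 0.88), and its adjusted p was 0.13 with limma on FPKM values. Other genes of this size were also low in abundance, among them Egfl6, a matrix protein with EGF repeats (1.06), the secreted neuropeptide Npy (0.94), and Hpse, the heparanase that cleaves heparan sulphate chains (0.92). Calls lost when 1 library was left out were those of Crispld1 (adjusted p up to 0.123, without HNG replicate 2, 3 or 4 or MOTS-c replicate 1, 2 or 3), Stap1 (adjusted p up to 0.0913, without HNG replicate 4 or MOTS-c replicate 1, 3 or 4), Adh7 (adjusted p up to 0.0588, without HNG replicate 2 or MOTS-c replicate 1) and Npy (adjusted p up to 0.07, without HNG replicate 4 or MOTS-c replicate 1, 2 or 3).

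Among abundant genes the differences were smaller but tight. Prelp, a leucine-rich proteoglycan that anchors basement membranes to connective tissue, stood at 111, 117, 116 and 113 CPM with HNG and 72.6, 75.4, 78.3 and 68.7 CPM with MOTS-c. The spread within a group was a small part of the gap, and the log2 fold change was 0.63 ± 0.05 (adjusted p = 3.37e-05). Ccnd1, the cyclin that drives entry into the cell cycle, was at 191, 200, 172 and 170 CPM with HNG against 111, 123, 118 and 108 CPM with MOTS-c, higher by 0.68 (adjusted p = 0.000133). It was the only one of 12 tested G1 cyclins and CDK inhibitors to pass, and 0 of 29 genes of S phase and mitosis passed in edgeR, where 4.41% of all tested genes did, with 2 at an unadjusted p below 0.05. Mcm2, a subunit of the replicative helicase, came nearest among those with 0.16 (adjusted p = 0.0655) and was the 1 that passed with DESeq2. Klf4, a zinc-finger transcription factor, Fxyd6, a regulator of the sodium pump, Glb1l, a relative of β-galactosidase, and the glutathione transferase Gsta1 were higher by 0.47, 0.56, 0.45 and 0.55, each without overlap between the groups.

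On the other side, Il1rl1, the gene of the IL-33 receptor ST2, had the smallest p of all lower genes. The HNG libraries held 122, 110, 109 and 107 CPM and the MOTS-c libraries 207, 177, 204 and 177 CPM. Each HNG value lay below each MOTS-c value, with a log2 fold change of -0.77 ± 0.06 (adjusted p = 8.31e-05), and AngII alone gave 179 to 198 CPM. Ccn4, a matricellular protein known as a Wnt-induced gene, stood at 46.6, 42, 38.7 and 46.7 CPM with HNG and 65.9, 64.8, 64 and 66.6 CPM with MOTS-c. The MOTS-c values lay within a narrow band above all HNG values, a difference of -0.59 ± 0.06 (adjusted p = 0.000309). Kcna6, a voltage-gated potassium channel, and Msc, the transcriptional repressor musculin, were lower, at -0.71 and -0.56 on the log2 scale. Has2, which makes hyaluronan, was at 3.91 to 4.58 against 4.9 to 7.21 CPM (-0.59), and Sntg2, a syntrophin, at 0.892 to 1.3 against 1.86 to 2.58 CPM (-0.97, with an adjusted p of 0.0537 where the library name was a block). Abundant genes that fell below their MOTS-c level were Nedd9, a scaffold of focal adhesion signalling (-0.46), the transferrin receptor Tfrc (-0.39), Errfi1, an inhibitor of the EGF receptor (-0.42), and the transcription factor Ets1 (-0.33), with adjusted p from 0.000175 to 0.000573. In this direction the calls lost on leaving out 1 library were those of Fcgr2b (adjusted p up to 0.128, without HNG replicate 1, 2 or 3 or MOTS-c replicate 1, 2, 3 or 4), Ppp4r4 (adjusted p up to 0.0744, without HNG replicate 2 or MOTS-c replicate 1 or 2), Ranbp3l (adjusted p up to 0.0756, without HNG replicate 2 or MOTS-c replicate 2, 3 or 4), Has2 (adjusted p up to 0.0722, without HNG replicate 2 or MOTS-c replicate 1 or 2) and Slc35f2 (adjusted p up to 0.0835, without HNG replicate 1, 2 or 4 or MOTS-c replicate 1, 2 or 3).

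In the 11 genes shown of those with symbols whose level with HNG exceeded that with MOTS-c by most (called, at least 1 CPM, no overlap), all 4 libraries of AngII alone lay below the lowest HNG library, and in 11 of the 12 in the other direction they lay above the highest HNG library. The exception was Fcgr2b, an inhibitory Fc receptor, with 1.05 to 2.04 CPM under AngII alone and 0.918 to 1.6 CPM with HNG. These genes were chosen for their distance between HNG and MOTS-c, so the place of the AngII libraries is a description.

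**Figure D3:**
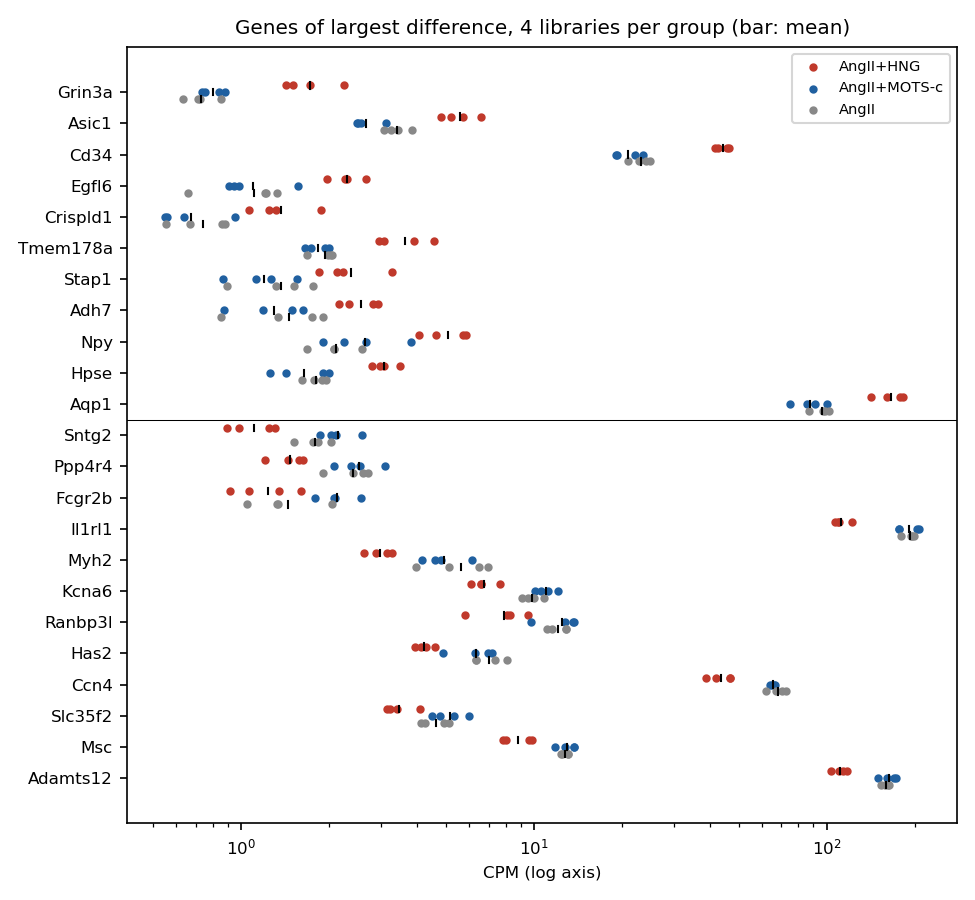
Levels (CPM, log axis) of 23 of the genes of largest difference among called genes with a symbol, groups that do not overlap and at least 1 CPM on average, 4 points per group and a bar at the mean, for AngII+HNG (red), AngII+MOTS-c (blue) and AngII (grey); the genes above the line were higher and those below it lower with HNG. Cd34 stands at 41.6 to 46.3 CPM with HNG and 19.0 to 23.5 CPM with MOTS-c.

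Many genes of the myofibroblast programme were lower with HNG than with MOTS-c. Of 21 tested genes of fibroblast activation and contraction, 11 were lower and 0 higher, where 1.77% of all tested genes were lower, and the median log2 fold change of the list was -0.23. The gene lists were all chosen with earlier results of these data known, so their counts are descriptions. Acta2, which encodes α-smooth muscle actin, stood at 3480, 3340, 3500 and 3220 CPM with HNG and 3890, 4280, 4040 and 4040 CPM with MOTS-c. The groups did not overlap and differed by -0.26 ± 0.04 (adjusted p = 0.00355), and the adjusted p was 0.0663 on FPKM values with limma. Smtn, the smooth muscle protein smoothelin, was at 150, 155, 144 and 145 CPM against 182, 180, 182 and 173 CPM, and it too showed no overlap (-0.27 ± 0.04, adjusted p = 0.00234). The actin-binding proteins and myosin light chain Cnn1, Lmod1, Tpm2, Flna and Myl9 were lower, at log2 fold changes of -0.22, -0.29, -0.27, -0.18 and -0.24. So were the secreted factors Ccn1 (-0.36) and Ccn2 (-0.28), which are targets of the YAP coactivator, the matrix glycoprotein Tnc (-0.25) and Cthrc1 (-0.37), a marker of activated fibroblasts. Postn, another marker of activated fibroblasts, differed by 0.26 ± 0.11 and did not pass (adjusted p = 0.234). Without AngII+HNG replicate 3 the count was again 11, without any other single library it was 9 to 11, and on FPKM values it was 6. One gene of this list, and 1 of the adhesion list described next, was higher without AngII+MOTS-c replicate 4.

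Cell adhesion genes that passed were also lower. Of 26 tested integrins and focal adhesion proteins, 10 were lower with HNG and 0 higher, against 1.77% of all tested genes called lower and 2.64% higher, with a list median of -0.13. Itga11, a collagen-binding integrin of myofibroblasts, stood at 298, 293, 269 and 301 CPM with HNG and 374, 412, 403 and 423 CPM with MOTS-c. The highest HNG library was well below the lowest MOTS-c library, and the log2 fold change was -0.47 ± 0.05 (adjusted p = 0.000322). Other receptor chains were lower by less, among them Itga1 (-0.26), Itga4 (-0.29), Itga6 (-0.24), Itga9 (-0.21) and the common β chain Itgb1 (-0.16). On the inner side of the adhesion site, Vcl, Tns1, Lims1 and the integrin activator Fermt2 differed by -0.21, -0.19, -0.22 and -0.17. The count was 8 without AngII+HNG replicate 3 and fell to 6 without AngII+HNG replicate 2 or 4, to 5 without AngII+MOTS-c replicate 1 or 2, to 4 without AngII+MOTS-c replicate 3 and to 4 on FPKM values. Smooth muscle and pericyte markers moved with these genes: Notch3 (-0.37) and Mcam (-0.30) were lower among 8 tested, the other 6 did not pass, and the summed levels given above did not overlap. Their list shares Des and Myh11 with that of fibroblast activation. The call of Fermt2 ended with the library name as a block (adjusted p = 0.055), and leaving out 1 library ended that of Mcam (adjusted p up to 0.0582, without MOTS-c replicate 2). The part of these cells in the result was not tested.

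The extracellular matrix changed in both directions. The main fibrillar collagen gene Col1a1 was at 22800 to 26700 CPM with HNG and 25600 to 26700 CPM with MOTS-c, with wide overlap and a log2 fold change of -0.04 ± 0.05 (adjusted p = 0.664). Among 21 tested collagens, Col8a2 was higher (0.41), and Col12a1 (-0.36) and Col4a1 (-0.19) were lower, where 2.64% of all tested genes were higher and 1.77% lower. The adjusted p of Col4a1 was up to 0.0718 on FPKM values with limma, and 4 collagens were higher without AngII+MOTS-c replicate 4. The collagen-crosslinking enzyme Lox stood at 642, 609, 564 and 620 CPM with HNG and 762, 757, 745 and 715 CPM with MOTS-c. All HNG values were below all MOTS-c values (-0.29 ± 0.05, adjusted p = 0.00318), and Loxl2 and the lysyl hydroxylase Plod2 were lower, at -0.19 and -0.21. In this list of 27 elastic fibre and crosslinking genes, fibulin 1 (Fbln1) was the 1 higher gene (0.39), with overlapping groups. Of 9 small leucine-rich proteoglycans, Prelp and fibromodulin (Fmod, 0.35) were higher and 0 were lower. Leaving out 1 library ended the calls of Fbln1 (adjusted p up to 0.142, without HNG replicate 1 or 4 or MOTS-c replicate 1, 2 or 3), Plod2 (adjusted p up to 0.0645, without MOTS-c replicate 1, 2 or 3) and Loxl2 (adjusted p up to 0.129, without HNG replicate 1, 2, 3 or 4 or MOTS-c replicate 1, 2 or 4). Without AngII+HNG replicate 3, 5 crosslinking genes were lower and 3 proteoglycans higher, and without AngII+MOTS-c replicate 1 or 2 only 1 crosslinking gene was lower.

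Matrix proteases and their inhibitors split, with 3 of 24 tested higher and 3 lower, against 2.64% and 1.77% of all tested genes. Without AngII+HNG replicate 3, 4 were higher. Adamts5, an aggrecanase, stood at 110, 114, 114 and 112 CPM with HNG and 81, 84.9, 82.8 and 82.8 CPM with MOTS-c. The values within each group were nearly equal, and the difference was 0.44 ± 0.04 (adjusted p = 8.31e-05). The gelatinase Mmp2 (0.36) and the inhibitor Timp2 (0.23) were also higher. Adamts12 went the other way, at 114, 110, 103 and 117 CPM against 172, 160, 169 and 150 CPM (-0.55 ± 0.05, adjusted p = 0.00019), together with Adamts8 (-0.53) and Adamts14 (-0.25).

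Many genes of the lysosome were higher with HNG. Of 46 tested lysosomal hydrolases and their activators, 16 were higher and 0 lower, against 2.64% of all tested genes called higher. The median log2 fold change of the list was 0.18, and 43 of the 46 estimates were above 0. The summed level was 6710 to 7220 CPM with HNG, 5800 to 6270 CPM with MOTS-c and 5840 to 6280 CPM with AngII alone. Gaa, the acid α-glucosidase that digests glycogen, stood at 139, 146, 148 and 158 CPM with HNG and 105, 109, 110 and 117 CPM with MOTS-c. The groups did not overlap, and the difference was 0.42 ± 0.05 (adjusted p = 0.000573). The protease cathepsin L (Ctsl) was at 622, 603, 640 and 615 CPM against 487, 495, 499 and 517 CPM, with 0.31 ± 0.04 on the log2 scale (adjusted p = 0.00074). Cathepsin D (Ctsd), the main aspartic protease of the lysosome, was at 656, 668, 690 and 748 CPM against 529, 495, 533 and 584 CPM (0.37 ± 0.06, adjusted p = 0.00312). Further cathepsins that passed were Ctsb (0.39), Ctsz (0.36), Ctsk (0.35), Ctss (0.35), Ctsa (0.26) and Ctsf (0.18). Enzymes of glycan and sphingolipid breakdown were among them too, such as Hexa (0.29), Naglu (0.34), Man2b1 (0.21) and the acid ceramidase Asah1 (0.16). The 3 estimates below 0 were Ctsc, Lipa and Ids, at -0.12, -0.09 and -0.08, and did not pass. Among 28 lysosomal membrane proteins and subunits of the proton pump V-ATPase, Atp6v1d (0.29), Lamp1 (0.17) and Atp6ap1 (0.15) were higher. The hydrolase count was 18 without AngII+HNG replicate 3, and it fell to 9 without AngII+MOTS-c replicate 1 and to 7 without AngII+MOTS-c replicate 2. The membrane count fell from 3 to 0 without either of those libraries, and it was 1 without AngII+HNG replicate 2, AngII+HNG replicate 4 or AngII+MOTS-c replicate 3 and 5 without AngII+HNG replicate 3.

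The promoters of hydrolase genes are shown because 16 of the 46 tested were called, each of them higher, and because many lysosomal genes are known to carry the E-box CACGTG, the core of the site read by TFEB and its relatives. RefSeq promoters (GRCr8, 250 bases before to 50 after the start) were found for 3 of the 4 hydrolase genes of smallest p, not for Hexa, and are printed 5′ to 3′ on the strand of the gene with each CACGTG in capitals. Their coordinates are those of GRCr8, and the build used for the counts is not known here.
Gaa, chr10:105028105-105028404, plus strand: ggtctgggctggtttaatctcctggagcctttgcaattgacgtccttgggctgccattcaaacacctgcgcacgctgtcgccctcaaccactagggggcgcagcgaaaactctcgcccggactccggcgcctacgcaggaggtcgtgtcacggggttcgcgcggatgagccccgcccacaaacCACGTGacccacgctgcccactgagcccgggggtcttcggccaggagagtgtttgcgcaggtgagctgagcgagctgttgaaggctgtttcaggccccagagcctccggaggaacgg
Ctsl, chr17:769854-770153, plus strand: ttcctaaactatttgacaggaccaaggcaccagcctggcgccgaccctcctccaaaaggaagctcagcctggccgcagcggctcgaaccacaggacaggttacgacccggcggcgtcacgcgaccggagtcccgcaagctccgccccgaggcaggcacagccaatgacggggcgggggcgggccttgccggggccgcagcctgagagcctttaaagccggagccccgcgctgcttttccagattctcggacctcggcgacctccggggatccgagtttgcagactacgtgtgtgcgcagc
Ctsd, chr1:206968772-206969071, minus strand: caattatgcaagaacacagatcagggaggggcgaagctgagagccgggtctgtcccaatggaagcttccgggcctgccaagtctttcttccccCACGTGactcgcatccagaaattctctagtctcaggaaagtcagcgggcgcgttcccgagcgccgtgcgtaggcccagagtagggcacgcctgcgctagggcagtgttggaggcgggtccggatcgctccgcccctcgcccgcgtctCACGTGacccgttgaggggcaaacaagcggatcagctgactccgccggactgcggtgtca
The window of Gaa holds the motif once, starting at base 184, that of Ctsd holds it at bases 94 and 241, and these letters are not in the window of Ctsl. CACGTG reads the same on both strands, and it was found in 6.42% of all 33469 promoters of the table. By gene, it was in 7 of the 34 hydrolase genes with a promoter (20.6%), in 6 of 24 membrane and V-ATPase genes (25.0%) and in 1051 of 10885 tested genes (9.66%). Of the 13 called hydrolase genes with a promoter 3 held it (23.1%), near the share of the whole list. Of the genes called higher with HNG, 35 of 273 with a promoter (12.8%) held it, and of those called lower 12 of 189 (6.35%). A match is a description of the letters, and binding of a factor was not measured here.

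Several markers of macrophages, cells rich in lysosomes, were also higher with HNG. Their summed level over 17 genes was 437 to 565 CPM with HNG, 321 to 388 CPM with MOTS-c and 327 to 396 CPM with AngII alone, and 6 of 16 tested markers were higher and 0 lower, against 2.64% of all tested genes called higher. Lyz2, lysozyme of myeloid cells, stood at 150, 162, 172 and 201 CPM with HNG and 103, 92.7, 110 and 118 CPM with MOTS-c. All HNG values were above all MOTS-c values (0.70 ± 0.09, adjusted p = 0.000833), and Aif1 (0.67), the lysosomal glycoprotein Cd68 (0.52), Mrc1 (0.46), Cd53 (0.45) and Laptm5 (0.37) were higher as well. Defining markers did not all go this way: the growth factor receptor Csf1r differed by 0.12 ± 0.09, Adgre1 by -0.26 ± 0.17, and the complement genes C1qa, C1qb and C1qc by 0.03, -0.19 and -0.67, with none of these past the test. Cd163 had too few counts to be tested and was at 0 to 0.348 CPM. The count stayed at 6 without AngII+HNG replicate 3 and fell to 3 without AngII+MOTS-c replicate 1 and to 2 without AngII+MOTS-c replicate 2. Leaving out 1 library ended the call of Laptm5 (adjusted p up to 0.0631, without MOTS-c replicate 1, 2 or 3). It also ended that of Cd53 (adjusted p up to 0.0503, without MOTS-c replicate 2). The part of macrophage RNA in the lysosomal, lipid transport, complement and scavenger results was not tested.

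**Figure D4:**
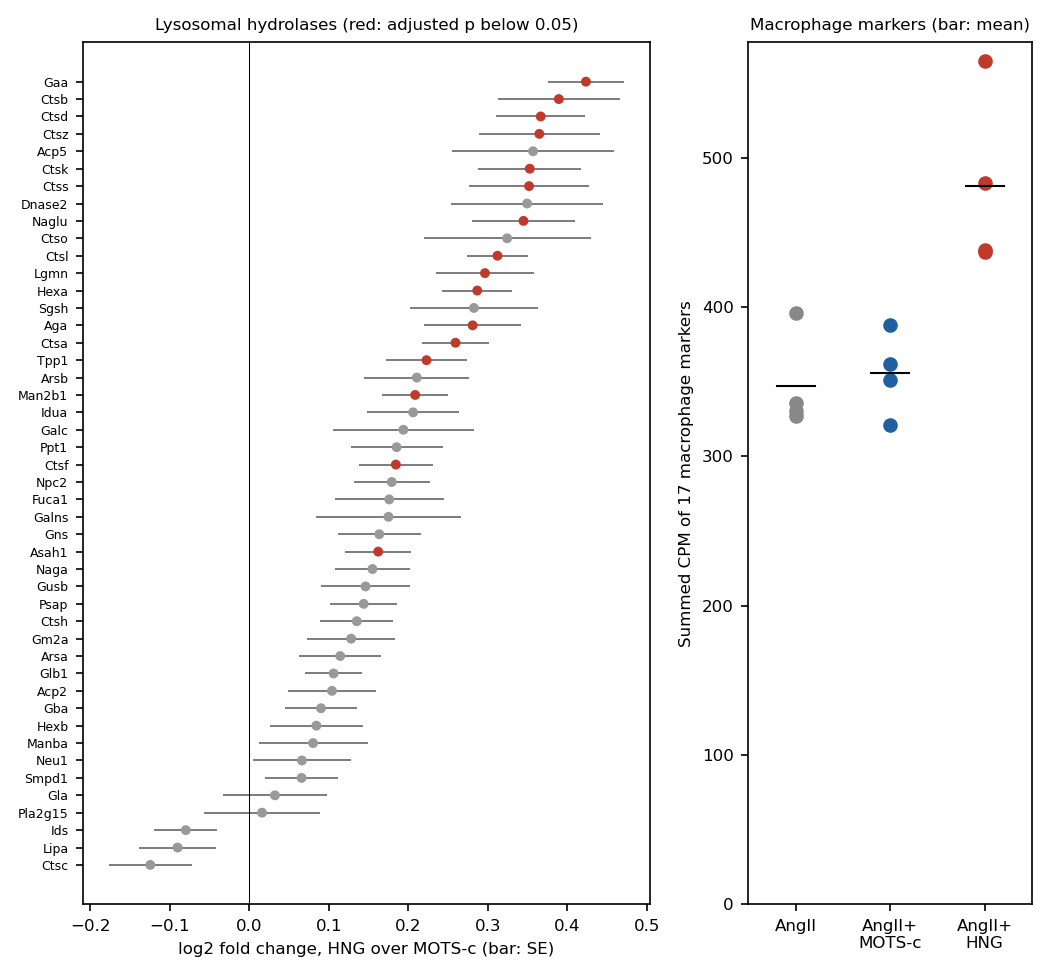
Left, log2 fold change of HNG over MOTS-c with its standard error for 46 lysosomal hydrolase genes, red where the adjusted p was below 0.05; right, summed CPM of 17 macrophage markers in each library with a bar at the mean. The 16 red genes all lie above 0, and the HNG libraries lie at 437 to 565 CPM against 321 to 388 CPM with MOTS-c.

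Lipid transport genes controlled by the sterol-sensing receptor LXR were higher in 3 of 11 tested, against 2.64% of all tested genes. Apoe, the lipoprotein made by macrophages and stromal cells, stood at 211, 222, 310 and 261 CPM with HNG and 142, 111, 141 and 146 CPM with MOTS-c. The HNG libraries varied from 211 to 310 CPM, yet the groups did not overlap (0.90 ± 0.11, adjusted p = 0.00093). The cholesterol exporter Abca1 (0.29) and the phospholipid transfer protein Pltp (0.50) passed too, and 5 passed without AngII+HNG replicate 3. Of 24 genes of cholesterol synthesis 0 passed in the main edgeR test, although 8 had an unadjusted p below 0.05, 17 estimates were below 0 and 5 passed with DESeq2, namely Hmgcs1, Idi1, Msmo1, Nsdhl and Sc5d. In other edgeR tests 2 were lower with robust dispersion, 1 with at least 10 counts asked of every library, 1 in a block design by library name, 3 in one by replicate number and 2 without AngII+HNG replicate 1. The smallest p in the main test was that of the sterol oxidase Msmo1 with -0.19 (adjusted p = 0.053).

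Complement genes were higher in 6 of 18 tested and lower in 0, against 2.64% and 1.77% of all tested genes. C7, a component of the membrane attack complex, stood at 468, 448, 498 and 639 CPM with HNG and 262, 244, 279 and 362 CPM with MOTS-c. Both groups had their highest value in replicate 4, and they did not overlap (0.84 ± 0.12, adjusted p = 0.00261). C1s and C1r, the proteases that start the classical pathway, were higher by 0.71 and 0.29, C4a and C2 by 0.62 and 0.46, and their inhibitor Serping1 by 0.43. The count was 5 or 6 whichever library was left out. Among 15 scavenger and endocytic receptors, Scara5, a ferritin receptor of stromal cells, was at 73.3, 81.9, 83.1 and 87.4 CPM against 59.3, 56.8, 58.3 and 59.4 CPM (0.48 ± 0.05, adjusted p = 0.000442), and the macrophage markers Cd68 and Mrc1 were the others that passed. One of 26 interferon and antigen presentation genes passed, B2m with 0.22, and leaving out 1 library ended the calls of B2m (adjusted p up to 0.0658, without MOTS-c replicate 2 or 3) and Mrc1 (adjusted p up to 0.0732, without MOTS-c replicate 1 or 2).

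Cytokine and chemokine genes gave 4 higher and 1 lower of 25 tested, against 2.64% and 1.77% of all tested genes, the lower being Il1rl1. Ackr4, a scavenging receptor for CCL19 and CCL21, stood at 7.81, 8.66, 11.2 and 12.5 CPM with HNG and 5.53, 5.79, 5.53 and 7.17 CPM with MOTS-c. The lowest HNG value exceeded the highest MOTS-c value (0.74 ± 0.15, adjusted p = 0.0125), but leaving out 1 library ended the call of Ackr4 (adjusted p up to 0.0542, without MOTS-c replicate 1 or 2). The interleukin 1 receptor Il1r1 (0.24), the chemokine Cxcl16 (0.31) and fractalkine (Cx3cl1, 0.20) were higher by less, and leaving out 1 library also ended the call of Cxcl16 (adjusted p up to 0.0615, without HNG replicate 2 or MOTS-c replicate 1, 2 or 3). The number of higher genes was 1 without AngII+MOTS-c replicate 1 or 2 and 2 without AngII+HNG replicate 2 or AngII+MOTS-c replicate 3.

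Antioxidant genes were higher in 6 and lower in 2 of 30 tested, against 2.64% and 1.77% of all tested genes. Akr1c15, an aldo-keto reductase, stood at 59.9, 62.8, 62.4 and 70 CPM with HNG and 32.4, 36.4, 30.3 and 40.1 CPM with MOTS-c. Its groups lay far apart (0.87 ± 0.08, adjusted p = 0.000175). The glutathione peroxidases Gpx1, Gpx3 and Gpx4 were higher by 0.38, 0.38 and 0.20, the haem oxygenase Hmox1 by 0.32 and extracellular superoxide dismutase Sod3 by 0.28. Nox4, an oxidase that produces hydrogen peroxide and is induced by TGF-β in fibroblasts, was lower (-0.34), as was the malic enzyme Me1 (-0.27). The list median was 0.01, with 17 estimates above and 13 below 0, and it was -0.01 without AngII+HNG replicate 3. Leaving out 1 library gave 4 to 7 higher genes, and 1 lower gene without AngII+HNG replicate 2 or 3 or AngII+MOTS-c replicate 1, 3 or 4.

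Among growth factor pathways, each list had members on both sides. Tgfb2, a ligand of the TGF-β family, stood at 202, 199, 179 and 171 CPM with HNG and 249, 249, 250 and 230 CPM with MOTS-c. All HNG values were lower (-0.38 ± 0.06, adjusted p = 0.00246), and Tgfb3 differed by -0.31. The receptor Tgfbr2 (0.33), the BMP target Id1 (0.37) and the BMP antagonist Grem1 (0.30) were higher, which made 3 higher and 2 lower of 34 tested, against 2.64% and 1.77% of all tested genes. There were 5 higher without AngII+HNG replicate 3 and 1 lower without AngII+HNG replicate 4 or AngII+MOTS-c replicate 1, 2 or 3, and the adjusted p of Id1 was up to 0.099 on FPKM values with limma. Feedback genes of the MAPK cascade, Spry4 (-0.36) and Dusp1 (-0.29), and the early gene Ier3 (-0.32) were lower, while Klf4 was the 1 higher gene of 28. The ligands Hbegf (-0.27), Pdgfd (-0.34) and Nrg1 (-0.36) were lower and the receptor Fgfr2 (0.28) higher among 37 growth factors and receptors. In Wnt signalling, 2 of 33 tested passed, near the 4.41% of all tested genes: the receptor Fzd4 was lower (-0.31) and the modulator Sfrp2 higher (0.61). With 1 library left out the calls lost were those of Dusp1 (adjusted p up to 0.0676, without HNG replicate 4 or MOTS-c replicate 3), Grem1 (adjusted p up to 0.0693, without MOTS-c replicate 1 or 2), Hbegf (adjusted p up to 0.0528, without MOTS-c replicate 1 or 2), Pdgfd (adjusted p up to 0.117, without HNG replicate 2, 3 or 4 or MOTS-c replicate 1, 2 or 3), Nrg1 (adjusted p up to 0.131, without HNG replicate 1, 2 or 4 or MOTS-c replicate 1, 2 or 3), Fzd4 (adjusted p up to 0.0631, without HNG replicate 4 or MOTS-c replicate 1, 2 or 3) and Sfrp2 (adjusted p up to 0.095, without HNG replicate 2 or 4 or MOTS-c replicate 1, 2 or 3).

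Of all tested genes, 4.41% passed in either direction. The renin-angiotensin system showed 1 called gene of 9, Ace, the enzyme that forms angiotensin II, and 2 without AngII+HNG replicate 3. Its level was 9.37, 11.3, 12.1 and 12.5 CPM with HNG and 7.59, 7.31, 6.55 and 7.14 CPM with MOTS-c. The groups did not overlap (0.66 ± 0.10, adjusted p = 0.00311), and AngII alone gave 7.17 to 8.41 CPM. Of 12 prostaglandin genes, the synthase Ptges was higher (0.70) and the prostaglandin F receptor Ptgfr lower (-0.32). Of 20 ion channels and connexins, the cation channel Trpv2 (0.41) and the calcium-activated potassium channel Kcnn4 (0.61) were higher. The calls that ended without 1 library were those of Ptges (adjusted p up to 0.0847, without HNG replicate 1 or 2 or MOTS-c replicate 1 or 3), Ptgfr (adjusted p up to 0.0809, without HNG replicate 1 or MOTS-c replicate 2 or 4) and Kcnn4 (adjusted p up to 0.0837, without HNG replicate 1 or 3 or MOTS-c replicate 1, 2 or 3).

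Energy metabolism and stress genes differed little. Of 74 nuclear genes of oxidative phosphorylation, 1 passed, Ndufb9 of complex I with 0.21 ± 0.06 (adjusted p = 0.0474), although 65 estimates were above 0 with a median of 0.08. The summed level was 6950 CPM in AngII+HNG replicate 3, 6330 to 6550 CPM in the other HNG libraries and 6230 to 6390 CPM with MOTS-c, and without that library 0 passed and the median was 0.02. Cytosolic ribosomal protein genes gave a like picture, with Rpl34 (0.21) the 1 called gene of 73, 69 estimates above 0 and a median of 0.10. Here AngII+HNG replicate 3 stood at 43000 CPM, the other HNG libraries at 36500 to 38100 CPM and the MOTS-c libraries at 34900 to 37400 CPM, and without that library 0 passed and the median was 0.05. Leaving out 1 library ended the calls of Ndufb9 (adjusted p up to 0.159, without HNG replicate 1, 2, 3 or 4 or MOTS-c replicate 1, 2 or 3) and Rpl34 (adjusted p up to 0.148, without HNG replicate 1, 2 or 3 or MOTS-c replicate 1, 2, 3 or 4). Members of these lists are short, with median lengths of 676 and 631 bases, and short genes as a whole lay above long ones: the median log2 fold change was 0.05 in the shortest 3612 tested genes and -0.03 in the longest 3612. The part of gene length in these lists was not tested. Of 13 mitochondrially encoded mRNAs, 22 glycolytic genes and 33 genes of the TCA cycle and fatty acid oxidation, 0 passed, where 4.41% of all tested genes did by the same edgeR test. At an unadjusted p below 0.05 there were 0, 6 and 3 of them, and with DESeq2 0, 1 (Ldhb) and 0 passed. At an adjusted p of 0.106 and 0.111, Ldhb (0.23) and Acadl (0.14) came nearest in the last lists, and the mitochondrial ND6 stood at 0.10 (adjusted p = 0.299). None of 21 ATF4 stress genes passed, though 19 estimates were below 0, with Mthfd2 nearest at -0.16 (adjusted p = 0.0894), and none of 16 heat shock genes did. There, 3 and 6 had an unadjusted p below 0.05, Mthfd2, Hspa4 and Hsph1 passed with DESeq2, and 1 gene of each list was lower without AngII+HNG replicate 3.

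Of the genes through which the peptides are thought to act, 0 of 7 tested for humanin and 0 of 11 for MOTS-c passed in edgeR, where 4.41% of all tested genes did. At an unadjusted p below 0.05 there were 1 and 0, and with DESeq2 0 and 0 passed. Il6st, the gp130 chain, stood at 644, 640, 608 and 667 CPM with HNG and 700, 661, 672 and 683 CPM with MOTS-c. The groups overlapped, and the difference was -0.09 ± 0.04 (adjusted p = 0.267). The other receptor chains were scarce, with Cntfr at 0.604 to 0.971 against 0.29 to 0.806 CPM (0.64 ± 0.32, adjusted p = 0.295) and Il27ra at 1.86 to 2.75 against 2.17 to 2.75 CPM. Fpr2, the formyl peptide receptor, was at 0 CPM in 7 of the 8 libraries and at 0.0281 CPM in the other, below the floor of 3 counts, and was not tested. Of the intracellular partners, Bax differed by 0.19 ± 0.11, Bid by 0.24 ± 0.11 and Bcl2l11 by 0.08 ± 0.09, with adjusted p of 0.358, 0.245 and 0.678, and Igfbp3, a secreted partner, by 0.12 ± 0.08 (adjusted p = 0.475). For MOTS-c, the catalytic AMPK subunits Prkaa1 and Prkaa2 differed by -0.10 ± 0.05 and -0.02 ± 0.09, the kinase CK2 genes Csnk2a1, Csnk2a2 and Csnk2b by -0.06, -0.05 and -0.01, Atic of purine synthesis by 0.04 and Ppargc1a, the coactivator of mitochondrial biogenesis, by 0.09 ± 0.13.

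Of the 8 genes that the study had selected on these libraries for qPCR, Ackr4 and Prelp passed, as described above, where 4.41% of all tested genes did. Cx3cr1, the fractalkine receptor of myeloid cells, was at 0.497 to 0.876 CPM with HNG and 0.898 to 1.41 CPM with MOTS-c without overlap, yet missed the threshold (-0.79 ± 0.25, adjusted p = 0.0921). Map3k15, a kinase of the MAPK cascade, had the largest estimate and the widest spread, at 4.44, 2.73, 1.87 and 0.533 CPM against 0.869, 0.747, 0.771 and 1.1 CPM (1.44 ± 0.46, adjusted p = 0.1). The HNG libraries ranged from below to far above the MOTS-c libraries, and the gene passed with DESeq2 (adjusted p = 0.026) and in edgeR without AngII+HNG replicate 4, the lowest HNG library (adjusted p = 0.00687). Sox10, a marker of Schwann cells, Gpld1, Hspa1l and Nudt11 differed by -0.41 ± 0.26, -0.56 ± 0.42, -0.20 ± 0.21 and 0.14 ± 0.24, and none passed (adjusted p = 0.414, 0.505, 0.659 and 0.794).

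For the remaining markers of cell types, the shares of all tested genes were again 2.64% higher and 1.77% lower. Thy1 (0.35) and Tcf21 (0.35) were higher of 9 fibroblast markers, with 3 higher without AngII+HNG replicate 3 and 4 without AngII+MOTS-c replicate 4, and the cardiac troponin Tnni3 was the 1 higher gene (0.54) of 12 cardiomyocyte markers. The endothelial receptors Tie1 (0.47) and Tek (0.35) were higher and Flt1 lower (-0.25) of 10 endothelial markers, of which 9 had estimates above 0 with a median of 0.30, while Pecam1 and Cdh5 differed by 0.13 ± 0.08 and 0.24 ± 0.10 and did not pass, and 3 were higher without AngII+HNG replicate 3. The call of Flt1 ended when 1 library was left out: Flt1 (adjusted p up to 0.0631, without HNG replicate 2 or 4 or MOTS-c replicate 2 or 3). Upk1b (0.87) was the 1 called gene of 9 epicardial and mesothelial markers, and 0 of 7 Schwann cell markers and 0 of 4 genes of X inactivation and the Y chromosome passed in edgeR or DESeq2, against 4.41% of all tested genes in edgeR, with 0 and 1 at an unadjusted p below 0.05.

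**Figure D5:**
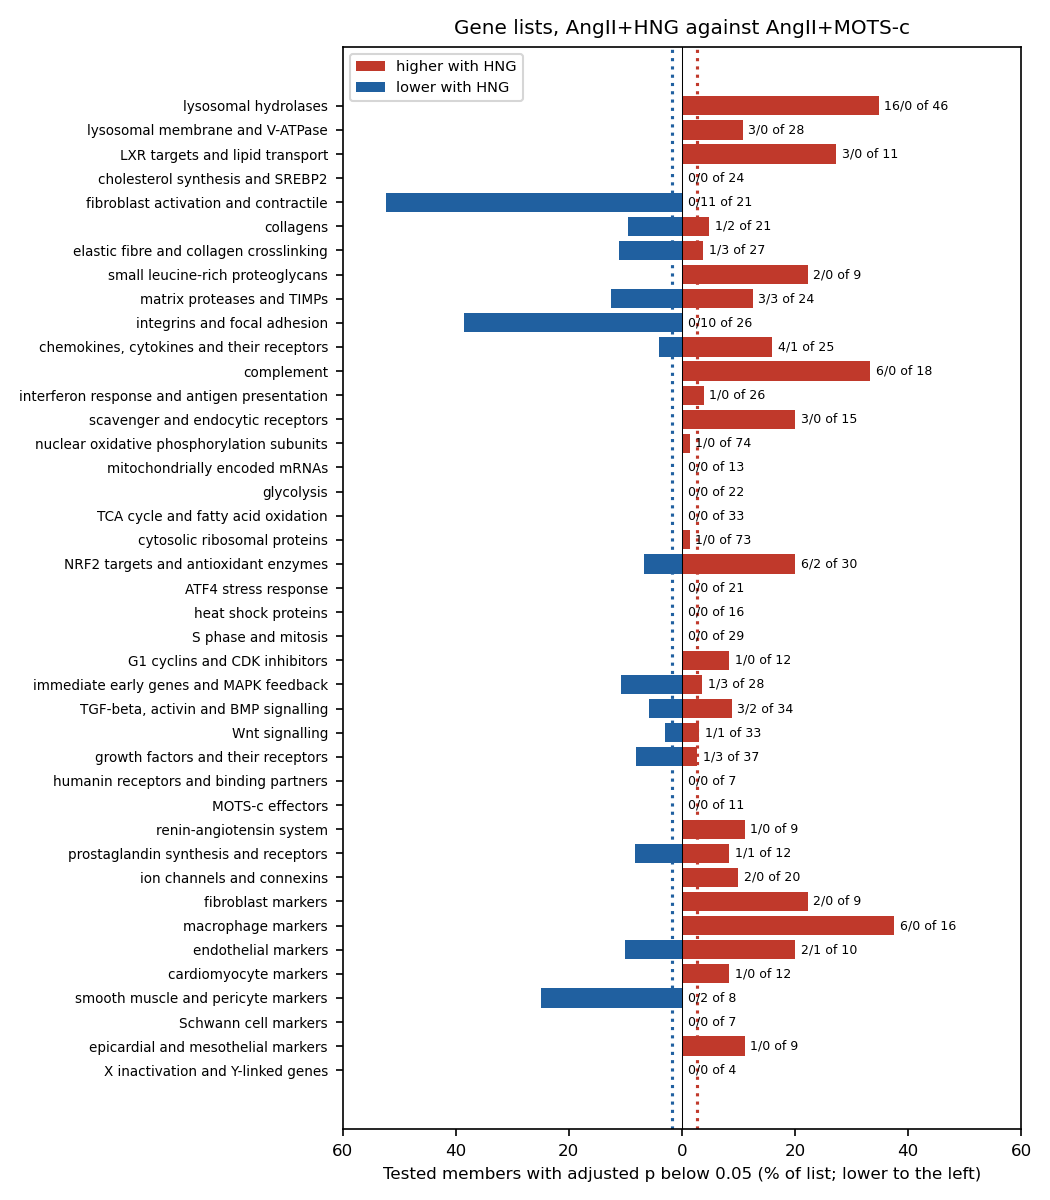
Share of the tested members of each of 41 gene lists (percent) that were called higher (red, to the right) or lower (blue, to the left) with HNG; the label gives higher/lower of tested members, and dotted lines mark 2.64% and 1.77%, the shares of all tested genes. Fibroblast activation and integrin genes reach furthest to the left, lysosomal hydrolases, complement genes and macrophage markers furthest to the right.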

How the data were processed

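The authors prepared mRNA libraries for DNBSEQ sequencing. Whole-number counts of reads per gene were deposited, together with FPKM values, in which the authors divided counts by gene length and library depth. The submitters' processing notes name HISAT2, Picard 1.41 and SAMtools 0.1.18. The counting tool, strand use and genome build are not given in the sources used here, so reads of near-identical, overlapping or antisense genes could not be separated.

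Treatments and replicate numbers came from the sample titles. Replicates 2 and 3 share a number in their library names and may share a culture, so p-values may in part measure technical spread. In R 4.3.3, edgeR 4.0.16 (filterByExpr, TMM, glmQLFit, glmQLFTest) was applied to the 8 libraries with Benjamini-Hochberg adjustment over 14448 genes, a threshold of 0.05 and no limit on fold change. Standard errors follow from the F statistic. Printed CPM were scaled over all 12 libraries. The computation was tested on simulated data. Alternatives used other filters, scalings and blocks, limma 3.58.1 on log2 FPKM, DESeq2 1.42.0 and the omission of libraries.

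Gene lists and members were chosen with earlier results of these data known. Named genes are, in each direction, the 12 of largest fold change (called, at least 1 CPM, no overlap, with 18 lacking a symbol passed over) and the 8 of smallest p with at least 50 CPM, up to 4 per list by p (1 where none was called), all members of the lists of the peptides' targets, Acta2, Col1a1 and the qPCR genes, with 1 item not reported here. Further list members were named after their values were seen.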

Additional observations from a re-analysis of the deposited data

Results flagged for a closer look

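In 15 of 284 groups of 4 libraries checked (142 named genes in HNG and in MOTS-c), the highest or lowest library lay far from the other 3: its gap to the nearest, divided by the range of the group, passed the limit of Dixon's test for 4 values. Chance gives about 1 in 20 groups, so this number is near what chance gives. In AngII+MOTS-c replicate 4, Egfl6 (0.881), Ackr4 (0.845) and Laptm5 (0.909) were high and Ier3 (0.905), Tgfb2 (0.933) and Fzd4 (0.982) low, the last with 191 CPM against 233 to 234 CPM. In AngII+MOTS-c replicate 2, Klf4 was high (0.906), and Apoe (0.846) and Mrc1 (0.917) were low, with 111 CPM of Apoe against 141 to 146 CPM and 28.1 CPM of Mrc1 against 34.0 to 34.6 CPM. In AngII+MOTS-c replicate 3, Asic1 (0.89) and Itga1 (0.87) were high and Gpld1 was low (0.855). With HNG, Bax (0.846) and Prkag1 (0.933) were highest in replicate 3, the library that stood apart, where Bax reached 75.7 CPM against 50.5 to 54.4 CPM, and Col4a1 was highest in replicate 1 (0.872).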

How the results depend on the processing

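The 637 called genes became 1034 with DESeq2 (571 higher, 463 lower) and 1054 with the replicate block (634 higher, 420 lower), sharing 632 and 629 genes with the main result, and were 322 to 625 when single libraries were left out. Other alternatives gave 430 (replicates 2 and 3 summed) to 727 (robust dispersion). The split between higher and lower moved by over 10 percentage points on FPKM values (72.3% higher with a pseudocount of 1, 72.4% with 0.1). The block used the replicate number of the titles, which the sources do not tie to a culture. Correlations of same-numbered libraries were -0.0138, 0.159, 0.0851 and 0.212, and those of differently numbered ones -0.133 to 0.122. Not every library correlated best with its own number, and these values cannot decide whether the numbers are pairs. The main test used no pairs. In the library names AngII+HNG replicate 1 is numbered 1, but AngII+MOTS-c replicate 1 is numbered 2. A block by the library name gave 485 genes. The separation of the groups was 38.7% with the replicate block (exact p = 0.125, the smallest of 8 divisions) and 27.2% with replicates 2 and 3 summed (exact p = 0.1, the smallest of 10 divisions), and these designs cannot pass the threshold. It was 23.2% to 25.4% without single libraries and 19% to 30.5% on other scales, all at p = 0.0286 in the one-sided exact permutation test, the smallest possible. The share to be had with no difference depends on the number of libraries and on blocks. Shares of unlike designs are therefore not comparable in size. All 109 called named genes kept their direction in every alternative run and 66 also kept the call. Most were chosen by their results in the same libraries that the alternatives use, so the kept direction is no separate evidence. Over the 142 named genes, 2315 recomputed values stayed on the same side of the threshold, 227 lost the call, 13 gained it and 0 turned. Of the list medians 699 moved by less than the spread between replicates and 39 by more. Alternatives that kept all libraries ended these calls of named genes: on FPKM values 23 with a pseudocount of 1 (Acta2, Col4a1, Crispld1, Dusp1, Fbln1, Fcgr2b, Flt1, Fzd4, Grin3a, Has2, Id1, Itga6, Lamp1, Loxl2, Mrc1, Ndufb9, Nrg1, Pdgfd, Ptgfr, Ranbp3l, Rpl34, Stap1 and Tnc) and 21 with 0.1, at limma adjusted p up to 0.189; with the library name as a block 17 (Adh7, Atp6ap1, Cxcl16, Fermt2, Grem1, Has2, Kcnn4, Lamp1, Loxl2, Ndufb9, Ppp4r4, Ptges, Ptgfr, Rpl34, Slc35f2, Sntg2 and Stap1), up to 0.179. With replicates 2 and 3 summed 20 were lost, with no filter 4 and with robust dispersion 2. With the replicate block 3 genes of cholesterol synthesis and 1 each of the ATF4, heat shock and S phase lists passed, and 6 collagens were higher. In that run 5 cytosolic ribosomal protein genes were higher, and of the cardiomyocyte markers 4 were higher and 1 lower. Genes near 1 CPM rest on few counts.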
